A study of Mus musculus with 30 samples.

Results

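The amino acid stress and endoplasmic reticulum (ER) stress genes comprised 34 genes, named as targets of the transcription factor ATF4 or as members of the unfolded protein response, and all 34 were found by name among the 41549 genes of the expression table. Liver, inguinal white fat (iWAT) and interscapular brown fat (iBAT) were sequenced from each of 5 WT mice and 5 LFABP-/- mice, so that 10 mice gave 30 RNA libraries. LFABP-/- mice lack liver fatty acid-binding protein (FABP1, encoded by Fabp1) in the whole body, so effects that arise within a tissue and effects that reach it from liver or intestine cannot be told apart. All mice of both genotypes were male, had a C57Bl/6J background, received a diet with 45% of its energy as fat for 12 weeks and were fasted for 4 h. Values are given as TPM, a measure of transcript abundance corrected for gene length and library size. Replicate numbers name different mice in the WT and LFABP-/- groups.

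When amino acids run short or misfolded proteins build up in the ER, stress kinases phosphorylate the translation factor eIF2. Protein synthesis then slows, while the ATF4 mRNA is translated more. ATF4 protein turns on genes for amino acid synthesis, amino acid uptake and tRNA charging, together with the hormones GDF15 and FGF21. Misfolded proteins in the ER also act through ATF6 and through IRE1, which splices the Xbp1 mRNA, and those branches raise chaperones such as BiP. FGF21 is best known as a liver hormone of fasting and is also made by activated brown fat.

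Fabp1 itself matched the labels in liver, where it was between 9165.5 and 12697.6 TPM in WT and between 0.2 and 51.8 in LFABP-/- mice. In the fat depots, where it was low in WT, it did not follow the labels. In iWAT it was at 1.9 to 23.9 TPM in WT and at 0.2 to 0.9 TPM in 4 LFABP-/- libraries, but at 196.1 TPM in the library labelled LFABP-/- replicate 1. In iBAT it was at 0.2 to 8.7 TPM in WT and at 0.4, 2, 21.2, 15 and 13.1 TPM in the libraries labelled LFABP-/- replicates 1 to 5, the last 3 above every WT library. The cause was not tested, and counts without these libraries are given with the results of each depot. Several libraries stood apart. In iWAT, WT replicates 3 and 4 and LFABP-/- replicates 2, 3 and 4 had 15 lymphocyte markers at a mean log2 level of 5.06 to 6.95, against 0.81 to 1.52 in the other 5 libraries. They are called the libraries with lymph node here, since the inguinal depot surrounds a lymph node, although the labels do not mention it. LFABP-/- replicate 1 of iWAT also had 2353.8 TPM of hepatocyte markers, against 106.9 to 567.1 in the other libraries, and LFABP-/- replicate 4 had 5938.7 TPM of skeletal muscle markers, against 75.7 to 918. In iBAT, all 10 hepatocyte markers were called higher in LFABP-/- mice, and their summed level was 6.9 to 102.2 TPM in WT and 197.6 to 2019 TPM in LFABP-/- libraries. Skeletal muscle markers in iBAT summed to between 307.5 and 45981 TPM across the 10 libraries, and the genotypes overlapped. Of the 14 markers 0 were called, but all 14 had a negative log2 difference (median -1.21). In liver, WT replicate 5 had a summed level of 910.5 TPM over 9 macrophage markers, against 229.8 to 344.8 in the other WT libraries. Mitochondrially encoded genes held 53.3 to 60.1% of the value in iBAT and 13.2 to 20.6% in iWAT. In bulk tissue of this kind, fewer cells of a type and less RNA per cell cannot be told apart.

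In iBAT, more members rose than fell in LFABP-/- compared with WT mice, but not evenly over the functional classes. The median log2 difference was 0.93 for amino acid synthesis, 0.04 for the ER members and -0.305 for the cytosolic effectors. Of the 29 members expressed well enough to test, 16 rose and 2 fell, whereas over all 11614 tested genes 22.3% rose and 25.5% fell. A gene was tested if its mean was at least 1 TPM over the 10 libraries of the tissue, and called if its adjusted p in limma was under 0.1. Fgf21, Gdf15 and Aldh18a1, at WT means of 0.38, 0.22 and 0.92 TPM, passed this filter only through their LFABP-/- libraries. The filter thus set the direction of their difference in mean TPM. The shares over all genes used the same filter. Among the 16 were Fgf21 and Gdf15, at under 1 TPM in every WT library and at 5.1 TPM or more in every LFABP-/- library, and Atf4, at a ratio of means of 3.00. The median log2 difference of the tested members was 0.48, against -0.03 over all tested genes. In the LFABP-/- libraries, 15 of the 34 members lay above all WT libraries and 1 lay below, where 12.1% and 14.3% of all tested genes did so. The 15 include Slc7a1, which was too low to test. Quantile normalization left 16 members higher and made 5 lower.

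**Figure D1:**
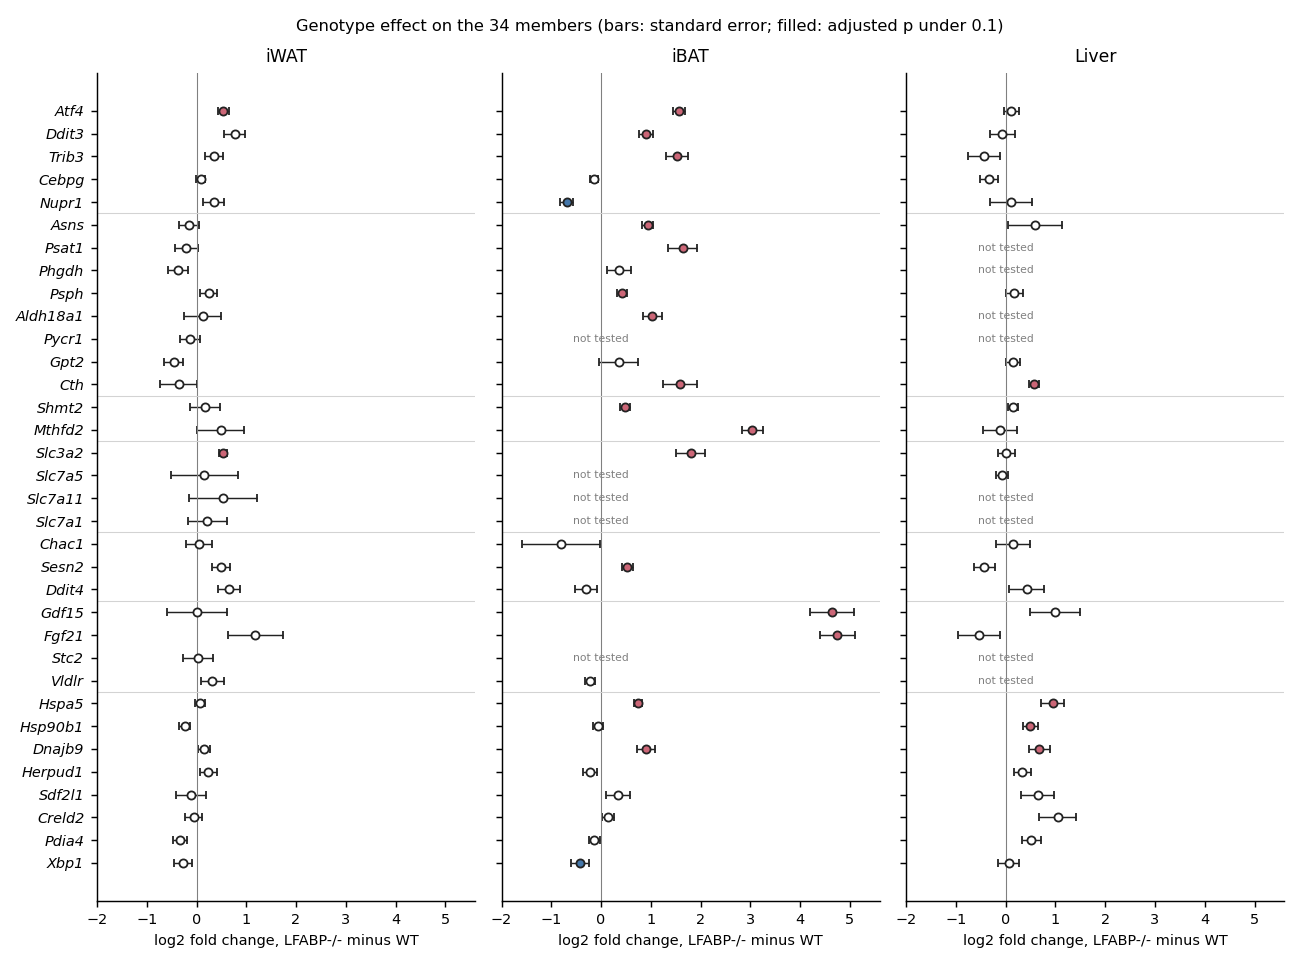
Log2 difference (LFABP-/- minus WT, on log2 of TPM plus 0.5) of each tested member in iWAT, iBAT and liver, grouped by role, with bars for 1 SE; filled points were called at an adjusted p under 0.1 (red higher, blue lower). In iBAT 16 members were called higher and 2 lower, in liver 4 higher and in iWAT 2 higher.

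Of the 5 regulators at the head of the response 3 rose in iBAT, 1 fell and 1 was not called. Atf4 (chr15:80255184-80257541, plus strand, GRCm38) stood at 56.7, 56.1, 54.3, 51.9 and 64.9 TPM in WT replicates 1 to 5, and at 206.5, 195.6, 138.5, 148.7 and 163.3 TPM in LFABP-/- replicates 1 to 5. Each LFABP-/- library was above the highest WT library. The log2 difference was 1.57 (SE 0.11, adjusted p 3.46e-05). Ddit3 encodes CHOP, a partner and target of ATF4 linked to cell death under ER stress. It was at 11.9 to 19.4 TPM in WT and 25.6 to 35.9 TPM in LFABP-/- libraries, a log2 difference of 0.90 (adjusted p 0.00113). Trib3, a pseudokinase that feeds back on ATF4 and CHOP, rose from 5.14 ± 0.666 to 16.6 ± 7.25 TPM (mean ± SD, n = 5), and LFABP-/- replicate 2 was the highest library at 29.2 TPM. Cebpg, whose protein pairs with ATF4 on DNA, was not called and stood at 30.2 ± 1.58 and 27.4 ± 3.20 TPM.

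Nupr1, a small stress-induced chromatin protein that is also an ATF4 target, went the opposite way. It was at 14.7, 13.4, 16.2, 17.2 and 13.1 TPM in WT and at 8.3, 7.6, 7.9, 10.3 and 11.4 TPM in LFABP-/- libraries, every one of them below WT. The log2 difference was -0.69 (SE 0.12, adjusted p 0.00192), so that Nupr1 and Atf4 moved in opposite directions in the same 10 libraries. Nupr1 lost its call in 1 fit of all 30 libraries (adjusted p 0.104) and with the hepatocyte markers as a covariate, where the log2 difference was -0.26 (adjusted p 0.512), but in none of the other 25 ways of processing the iBAT values.

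Enzymes of amino acid synthesis rose in iBAT for 5 of the 7 tested. Asns, asparagine synthetase, was at 26.4, 26, 24.2, 26.7 and 23 TPM in WT and at 47.3, 64, 47.8, 44.8 and 41.9 TPM in LFABP-/- libraries, a log2 difference of 0.93 (SE 0.11, adjusted p 0.000201). All 5 LFABP-/- libraries exceeded the WT range, and replicate 2 stood apart from the other 4. Serine synthesis runs through Phgdh, Psat1 and Psph in that order. Psat1 rose from 1.30 ± 0.704 to 5.18 ± 2.58 TPM and Psph from 6.42 ± 0.676 to 8.78 ± 1.09 TPM, while Phgdh, which catalyses the entry step, was at 10.3 ± 3.58 and 13.3 ± 4.27 TPM and was not called (adjusted p 0.268). Aldh18a1, the entry enzyme of proline synthesis, rose from 0.92 ± 0.217 to 2.46 ± 0.862 TPM. Pycr1, which completes proline, was too low to test, at a highest value of 1.0 TPM. Gpt2, the mitochondrial alanine transaminase, was not called (adjusted p 0.494). Its 2 highest WT libraries, replicates 4 and 5, were those with the 2 highest sums of skeletal muscle markers, and with those markers as a covariate Gpt2 was called higher at a log2 difference of 0.68 (adjusted p 0.0519).

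Cth, cystathionine gamma-lyase, makes cysteine from cystathionine and is abundant in hepatocytes. In iBAT it was at 1.0, 0.9, 1.3, 2.3 and 1.6 TPM in WT and at 5.1, 12.7, 4.6, 3.3 and 3.3 TPM in LFABP-/- libraries, with no overlap (log2 difference 1.59, SE 0.34, adjusted p 0.00468). Liver RNA at the share that the hepatocyte markers gave would add a mean of 2.57 TPM to the 5.80 TPM measured in LFABP-/- mice. After that share was subtracted the log2 difference was 0.76 and the call was lost (adjusted p 0.188).

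The mitochondrial folate enzyme Mthfd2 (chr6:83305691-83325908, minus strand), which is scarce in most adult tissues and rises under ATF4, was far higher in LFABP-/- mice. It was at 1.4, 1.3, 1.2, 0.9 and 0.9 TPM in WT and at 9.2, 22.8, 10.9, 11.9 and 12.8 TPM in LFABP-/- libraries. The lowest LFABP-/- library was far above the highest WT library. The log2 difference was 3.04 (SE 0.21, adjusted p 3.23e-05). Shmt2, which hands it folate-bound carbon from serine, rose from 11.1 ± 1.18 to 15.7 ± 2.40 TPM (log2 difference 0.48, adjusted p 0.00564).

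Of the amino acid transporters only Slc3a2 (chr19:8706882-8723369, minus strand) was expressed well enough in iBAT to test. It encodes the heavy chain CD98, which carries the light chains SLC7A5 and SLC7A11 to the plasma membrane. Its values were 23.7, 26.3, 20.3, 16 and 23.3 TPM in WT and 119.6, 124.1, 62.2, 67.8 and 41.7 TPM in LFABP-/- libraries, with no overlap and with replicates 1 and 2 well above the other LFABP-/- libraries (log2 difference 1.80, SE 0.29, adjusted p 0.00110). The light chain genes were low. Slc7a5 was at 0.1 to 2.6 TPM across the 10 libraries and Slc7a11 at 0.0 to 0.1 TPM. Slc7a1, a carrier of arginine and lysine, was at 0.3 to 0.5 TPM in WT and at 1.0 to 1.8 TPM in LFABP-/- libraries. These values did not overlap, but they lie near the rounding step of 0.1 TPM in the table.

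Among cytosolic effectors, Sesn2, a leucine sensor that restrains mTORC1, rose from 14.2 ± 0.999 to 20.9 ± 3.5 TPM (adjusted p 0.00508). Ddit4, another inhibitor of mTORC1, was not called (50.9 ± 9.74 and 42.1 ± 12.8 TPM). Chac1, which breaks down glutathione, was not called either. It ran from 2.8 to 77.5 TPM in WT and from 3.6 to 19.9 TPM in LFABP-/- libraries, and the libraries with the most skeletal muscle marker RNA, WT replicates 4 and 5 and LFABP-/- replicate 5, were the 3 highest.

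The stress hormones showed the largest differences of all members in iBAT. Fgf21 (chr7:45613886-45615490, minus strand) was at 0.7, 0.4, 0.4, 0.1 and 0.3 TPM in iBAT of WT mice and at 20.2, 59.4, 14.7, 20 and 16.2 TPM in LFABP-/- mice. Gdf15 (chr8:70629393-70632456, minus strand), a hormone that lowers food intake through a hindbrain receptor, was at 0.4, 0.2, 0.4, 0.0 and 0.1 TPM in WT and at 19.7, 41.1, 14.4, 22.5 and 5.1 TPM in LFABP-/- mice. Both genes were low in every WT library and clearly measured in every LFABP-/- library, with replicate 2 the highest for both. Fitted on log2(TPM + 0.5), which understates changes from such low values, the differences were 4.74 (SE 0.35, adjusted p 3.46e-05) for Fgf21 and 4.64 (SE 0.45, adjusted p 0.000103) for Gdf15. Liver RNA at the share given by the hepatocyte markers would contribute a mean of 0.115 TPM to the 26.1 TPM of Fgf21 and 0.858 TPM to the 20.6 TPM of Gdf15. Vldlr, a lipoprotein receptor, was not called (adjusted p 0.134), and Stc2, a secreted glycoprotein, was at 0.5 TPM or less in every iBAT library.

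**Figure D2:**
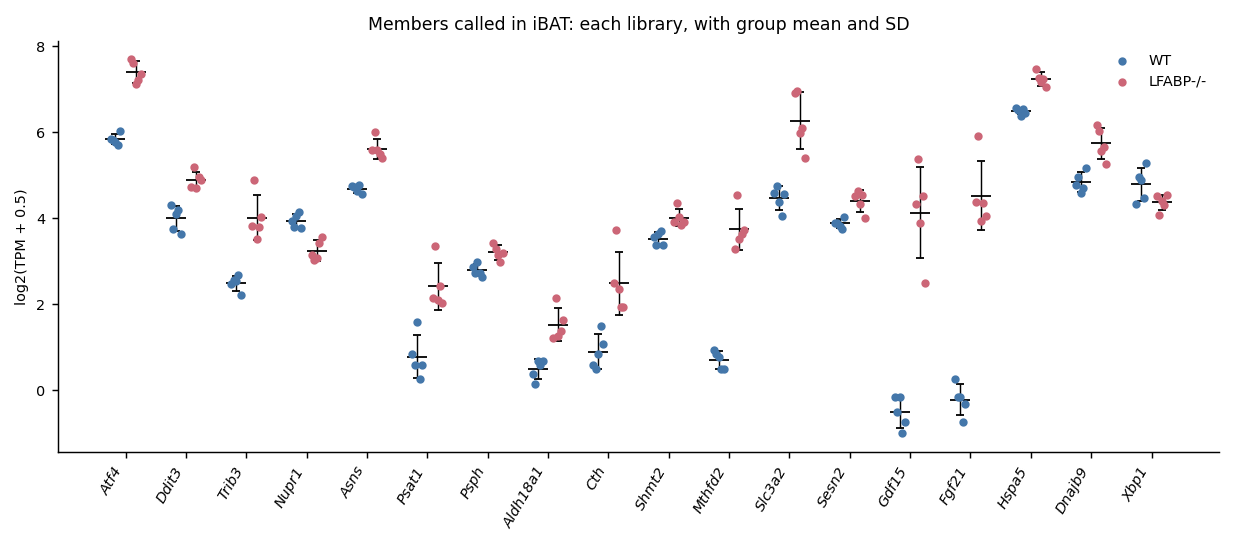
Levels on a log2 axis of TPM plus 0.5 of the 18 members called in iBAT, with a point for each of the 5 WT and 5 LFABP-/- libraries and black bars for the group mean and SD. Fgf21 and Gdf15 were under 1 TPM in all WT libraries and at 5.1 TPM or more in all LFABP-/- libraries, and Nupr1 was lower in every LFABP-/- library.

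ER genes in iBAT did not move together. Hspa5 (chr2:34771970-34777547, plus strand) encodes BiP, the main ER chaperone. It rose from 94.6, 90.8, 82.4, 92 and 87.3 TPM in WT to 178.0, 151.9, 142.5, 151.3 and 131.5 TPM in LFABP-/- libraries, with no overlap (log2 difference 0.75, SE 0.08, adjusted p 0.000159). Dnajb9, the co-chaperone ERdj4, rose from 28.3 ± 4.67 to 54.2 ± 13.7 TPM (log2 difference 0.90, adjusted p 0.00296). In contrast, Hsp90b1, the ER chaperone GRP94 that often rises with BiP, was at 87.0 ± 7.64 and 83.7 ± 12.7 TPM (log2 difference -0.06, adjusted p 0.655). Xbp1 fell by 0.42 on the log2 scale (adjusted p 0.0789), with overlapping values of 19.5 to 38.6 TPM in WT and 16.4 to 22.6 TPM in LFABP-/- libraries (exact two-sided permutation p 0.0873). This call was lost in 12 of 28 alternatives, 6 of which left out a single library. The table gives 1 value per gene, so spliced and unspliced Xbp1 were not separated. Herpud1, Sdf2l1, Creld2 and Pdia4, which serve ER-associated degradation and folding, were not called. The median log2 difference of the 8 ER members was 0.04, and 2 were called higher and 1 lower.

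Among the LFABP-/- libraries of iBAT, replicate 2 was the highest for 12 of the 16 members that rose and replicate 1 for the other 4, while replicate 5 was the lowest for 7. All the called members except Psph, Sesn2 and Xbp1 had groups that did not overlap and reached 0.0079 in an exact two-sided permutation test over the 252 assignments of libraries, which is the smallest p this design allows. The iBAT counts moved little when single libraries were left out (17 to 20 members called), and without the 3 LFABP-/- libraries with more Fabp1 than every WT library 17 members were higher and 1 lower. They depended on how the hepatocyte signal was handled. With the hepatocyte markers as a covariate, whose levels did not overlap between the genotypes, 4 members stayed called (Atf4, Mthfd2, Gdf15 and Fgf21) and over all genes the calls went from 5556 to 370. The log2 differences of some members that lost the call changed little, such as Ddit3 (0.90 to 0.87), Trib3 (1.52 to 1.45) and Psat1 (1.64 to 1.56). Those of others were much smaller in that fit, such as Cth (1.59 to 0.45), Sesn2 (0.53 to 0.21) and Dnajb9 (0.90 to 0.35). With the estimated liver share subtracted instead, at 0.187 to 1.86% of the LFABP-/- libraries, 15 members were higher and 4 lower. The share of all genes called is not set beside this count, nor beside the counts with libraries left out. Brown adipocyte markers also moved in the LFABP-/- libraries of iBAT, with 4 of 7 higher, among them Dio2, and 1 lower, and their part in these results was not tested.

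Genes of neighbouring pathways were also compared in iBAT, where 22.3% of all tested genes rose and 25.5% fell. Of 20 aminoacyl-tRNA synthetases, the enzymes that charge tRNAs, many of them ATF4 targets, 17 rose and 1 fell, with a median log2 difference of 0.42. Those with the smallest p were Gars at 0.83, Nars at 0.75 and Cars at 0.67, and the synthetase that fell, named after its value was seen, was Qars at -0.27. Of 16 tested other ATF4 pathway genes 8 rose and 3 fell. They included Atf5, a transcription factor of mitochondrial stress, at a log2 difference of 1.43, Ppp1r15a, which dephosphorylates eIF2, at 1.06, and the glutamine carrier Slc38a2 at 0.70. Among 47 further genes of the unfolded protein response 8 rose and 11 fell, beside 47.8% of all genes called in either direction. Of these, the ER-retained growth factor Manf rose by 0.88 and Derl2, of ER-associated degradation, fell by 0.38 on the log2 scale. NRF2 targets rose for 5 and fell for 1 of 10 (G6pdx, Srxn1 and Me1 had the smallest p), and 3 of 10 cytosolic heat shock genes rose (Hspa4, Bag3 and Dnajb1). Mitochondrial chaperones and proteases rose for 2 of 9 (Clpx and Hspa9), close to the share of all genes, with a median log2 difference of 0.06. Of 13 eIF2 kinases and translation factors 6 rose and 1 fell, with a median log2 difference of 0.10. Eif2b3, Eif2s1 and Eif2s2 had the smallest p.

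The core of the C/EBP-ATF response element, to which ATF4 binds, was sought as TGATGNAA on either strand in RefSeq promoter windows (GRCm38.p6, 250 bases before to 50 after each start). Windows existed for 32 members, all but Cth and Slc7a5. The letters occurred in 9 of 32 members (28.1%) and in 4.51% of 27025 genes. The members with a match were Trib3, Nupr1, Asns, Pycr1, Slc7a11, Chac1, Fgf21, Vldlr and Herpud1, and of the 15 members with a window that rose in iBAT 3 had one, namely Trib3, Asns and Fgf21. The stretches of 4 members are shown because Fgf21 and Asns rose in iBAT, Nupr1 fell and Chac1 was not called, although all hold the same letters. Each is written 5′ to 3′ on the strand of its gene, with the fixed letters of the element in capitals, and those of Nupr1 and Asns are short because they lie inside a longer Ensembl gene model.
Fgf21 (chr7:45615597-45615654, minus strand, match 139 bases before the start): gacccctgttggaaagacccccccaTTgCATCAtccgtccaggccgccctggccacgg
Asns (chr6:7693220-7693237, minus strand, match 23 bases before the start): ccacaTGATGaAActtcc
Nupr1 (chr7:126625568-126625585, minus strand, match 110 bases before the start): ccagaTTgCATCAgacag
Chac1 (chr2:119351024-119351081, plus strand, match 193 bases before the start): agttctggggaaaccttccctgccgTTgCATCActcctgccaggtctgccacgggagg

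In liver 3 of the 8 ER members rose and, of the other members, Cth. Of 26 tested members 4 were called higher (Hspa5, Hsp90b1, Dnajb9 and Cth) and 0 lower, whereas over 11629 genes 3.08% were called higher and 13.9% lower. At an unadjusted p under 0.05, 6 members were higher and 0 lower, beside 27.9% of all genes in either direction. The median log2 difference was 0.15 over the members and -0.11 over all genes. Mitochondrially encoded genes held 12.1 to 15.1% of the value in WT and 16.9 to 18.1% in LFABP-/- livers. Of 10 hepatocyte markers 3 were called lower and 0 higher, with a mean log2 level over the list of 12.46 to 12.61 in WT and 12.22 to 12.44 in LFABP-/- livers. The part of both in the liver results was not tested.

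Hspa5 was at 307.4, 192.4, 211.9, 410.8 and 276.4 TPM in WT livers and at 837.0, 420.2, 421.2, 474.5 and 532.0 TPM in LFABP-/- livers. The groups did not overlap, although WT replicate 4 came close to the lowest LFABP-/- libraries, and LFABP-/- replicate 1 stood far above the rest. The log2 difference was 0.94 (SE 0.23, adjusted p 0.0344). Hsp90b1 was at 392.1, 273.7, 337.6, 452.7 and 356.7 TPM in WT and at 644.9, 434.4, 445.6, 508.3 and 515.6 TPM in LFABP-/- livers (log2 difference 0.50, SE 0.14, adjusted p 0.0556). Here WT replicate 4 lay above the 2 lowest LFABP-/- libraries. Dnajb9 was at 29.6, 31.6, 26.1, 32 and 39.5 TPM in WT and at 71.7, 29.2, 52.7, 64.3 and 46.0 TPM in LFABP-/- livers (log2 difference 0.67, SE 0.21, adjusted p 0.0716), with LFABP-/- replicate 2 inside the WT range.

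The other ER genes were not called. Creld2, a chaperone-like ER protein, was at 71.9 ± 35.7 and 151 ± 87.8 TPM (log2 difference 1.05, adjusted p 0.1003), Pdia4, a disulfide isomerase, at 147 ± 33.6 and 212 ± 61.5 TPM (adjusted p 0.115), and Sdf2l1, a partner of BiP, at 72.5 ± 31.4 and 113 ± 52.3 TPM (adjusted p 0.227). Herpud1, of ER-associated degradation, had an adjusted p of 0.225, and Xbp1 differed by 0.06 on the log2 scale (SE 0.21). The median log2 difference of the 8 ER members was 0.58. LFABP-/- replicate 1 was the highest LFABP-/- library for 7 of the 8, and WT replicate 4 was the highest WT library for 6. Without LFABP-/- replicate 1, or without WT replicate 2, LFABP-/- replicate 4 or LFABP-/- replicate 5, 2 members were called in liver in place of 4, and without WT replicate 4 there were 6.

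**Figure D3:**
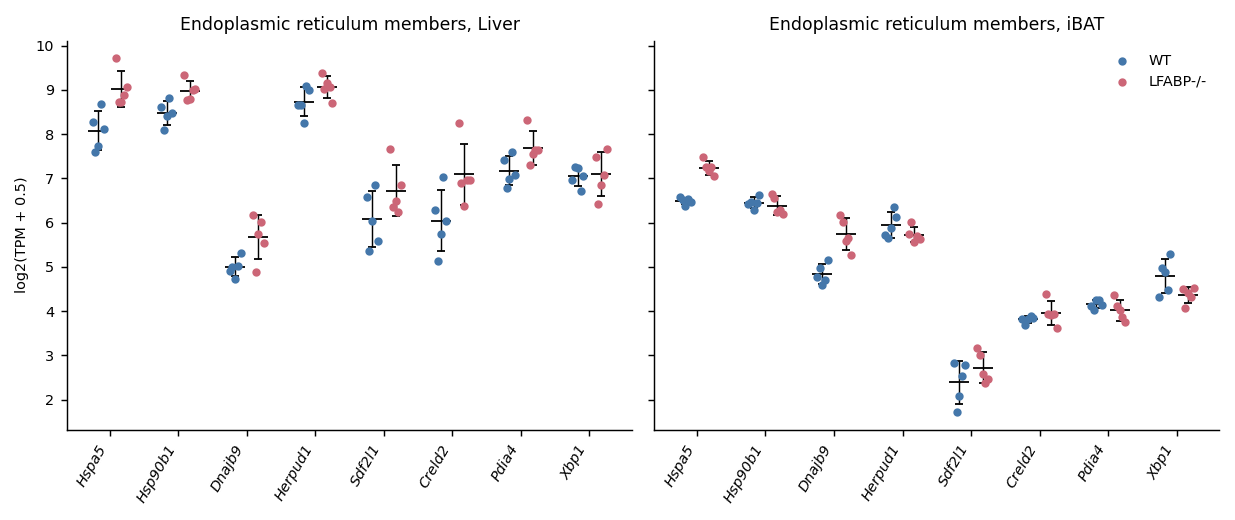
Levels on a log2 axis of TPM plus 0.5 of the 8 ER members in liver (left) and iBAT (right), 1 point per mouse for 5 WT and 5 LFABP-/- mice, with black bars for the group mean and SD. Hspa5 was higher in all LFABP-/- libraries of both tissues, whereas Hsp90b1 was at 83.7 TPM in LFABP-/- and 87.0 TPM in WT iBAT.

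The ER stress response element, sought as CCAAT and CCACG with 9 bases of any kind between them on either strand in the same promoter windows, occurred in 3 members, Hspa5, Hsp90b1 and Creld2, which is 9.38% of 32 members and 0.137% of all genes. TGACGTGG, bound by XBP1 and ATF6, occurred in 0 members and 0.714% of all genes. The windows of the 3 members are shown because Hspa5 and Hsp90b1 were called higher in liver, while in iBAT only Hspa5 was. The fixed letters are in capitals, and the stretch of Hspa5 is short because it lies inside a longer Ensembl gene model.
Hspa5 (chr2:34772020-34772048, plus strand, match 65 bases before the start): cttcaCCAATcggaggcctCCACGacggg
Hsp90b1 (chr10:86705508-86705681, minus strand, matches 212 and 107 bases before the start): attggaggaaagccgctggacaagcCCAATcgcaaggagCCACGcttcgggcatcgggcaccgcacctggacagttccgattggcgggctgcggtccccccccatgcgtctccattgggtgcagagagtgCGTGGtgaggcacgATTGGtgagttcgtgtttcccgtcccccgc
Creld2 (chr15:88819495-88819563, plus strand, match 126 bases before the start): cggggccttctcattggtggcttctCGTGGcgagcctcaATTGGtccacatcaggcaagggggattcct

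Cth (chr3:157894248-157925077, minus strand) was the member of the amino acid arm that rose in liver. It was at 158.8, 154.1, 162.4, 188.8 and 168.1 TPM in WT and at 236.9, 222.7, 299.8, 254.8 and 222.0 TPM in LFABP-/- livers, with no overlap (log2 difference 0.56, SE 0.10, adjusted p 0.0127). The call was lost in 1 fit of all 30 libraries (adjusted p 0.323). Atf4 was at 64.5 ± 12.2 TPM in WT and 70.0 ± 12.0 TPM in LFABP-/- livers, a difference well within the spread between mice (log2 difference 0.12, SE 0.15). It stayed uncalled in all 24 alternatives. Its highest WT value, 82.9 TPM, came from replicate 5, the liver library with the most macrophage marker RNA. That library was also the highest WT liver for Ddit3, Trib3, Asns, Mthfd2, Slc3a2 and Fgf21, but not for Cth, Gpt2, Shmt2, Chac1 or Gdf15. The hormones were variable in liver. Gdf15 was at 63.3, 15.4, 21.3, 49.6 and 49.2 TPM in WT and at 141.9, 26.6, 50.6, 123.9 and 68.9 TPM in LFABP-/- livers (log2 difference 0.99, SE 0.50, adjusted p 0.222). Fgf21 was at 13.7, 28.5, 5.4, 13 and 36.1 TPM in WT and at 14.6, 8.6, 13.8, 10.3 and 8.1 TPM in LFABP-/- livers (log2 difference -0.54, SE 0.42, adjusted p 0.425). The genotypes overlapped for both genes, and the 2 WT livers with the most Fgf21, replicates 2 and 5, were above every LFABP-/- liver.

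Beyond the members, 10 of 48 further genes of the unfolded protein response rose in liver and 3 fell, where 3.08% and 13.9% of all genes did so. Manf went from 34.1 to 83.1 TPM on average (log2 difference 1.30, adjusted p 0.0220), Txndc11 rose by 0.63 and Sec61b, a subunit of the ER protein channel, by 0.52. Of 20 aminoacyl-tRNA synthetases 0 rose and 1 fell (Qars, -0.24), and of 18 other ATF4 pathway genes 2 rose and 2 fell, with Slc6a9 at -0.59, Map1lc3b at -0.41 and Got1 at 0.64. Of 13 eIF2 kinases and translation factors 1 was higher and 2 lower, of 9 mitochondrial chaperones and proteases 0 were higher and 1 lower, and of 10 NRF2 targets 0 were called by limma, while 1 reached an unadjusted p under 0.05, as did 27.9% of all genes. Of 10 cytosolic heat shock genes 3 rose (Dnaja1, Bag3 and Hspa1b).

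In iWAT, where all 34 members could be tested, 2 were called higher, Atf4 and Slc3a2, and 0 lower, beside 0.682% and 0.770% of 14668 genes. At an unadjusted p under 0.05, 5 members were higher and 3 lower, beside 10.4% of all genes in either direction. Atf4 was at 107.7, 101.0, 123.5, 131.6 and 97.2 TPM in WT and at 151.9, 178.3, 180.4, 144.0 and 160.0 TPM in LFABP-/- libraries, with no overlap (log2 difference 0.54, SE 0.11, adjusted p 0.0667). Its mean went from 128 to 168 TPM within the libraries with lymph node and from 102 to 156 TPM within the others. Slc3a2 went from 123 ± 6.40 to 179 ± 17.8 TPM (log2 difference 0.53, SE 0.08, adjusted p 0.0291), which was 120 to 173 TPM with lymph node and 126 to 187 TPM without. These calls depended on the setting. With macrophage or skeletal muscle markers as a covariate, or among the 5 libraries without lymph node, 0 were called. The log2 differences in these fits were 0.79, 0.58 and 0.61 for Atf4 and 0.52, 0.52 and 0.57 for Slc3a2, close to the values above except for Atf4 with macrophage markers. Without WT replicate 3 the count was 0, and without WT replicate 2, WT replicate 5 or any single LFABP-/- library it was 1. The library labelled LFABP-/- replicate 1, with its high Fabp1, is among these, and without it Atf4 lost its call at a log2 difference of 0.56 (adjusted p 0.111). All 5 erythrocyte markers were called lower in LFABP-/- iWAT, with sums of 10821 to 19667 TPM in WT and 4576.5 to 8280.2 TPM in LFABP-/- libraries. Of 9 macrophage markers 1, Adgre1, was called lower, and the mean log2 level of the list was 6.54 to 7.27 in WT and 6.06 to 6.37 in LFABP-/- libraries. The part of the erythrocyte markers in the iWAT results was not tested.

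Ddit3 in iWAT also separated the genotypes, at 34.4, 18.8, 26.8, 34.5 and 18.3 TPM in WT and at 38.3, 37.2, 56.6, 39.6 and 50.6 TPM in LFABP-/- libraries, but it was not called (log2 difference 0.76, SE 0.21, adjusted p 0.174). The 3 members whose groups did not overlap in iWAT were thus Atf4, Ddit3 and Slc3a2, where 1.45% of all tested genes had every LFABP-/- library above WT and 1.66% below. The hormones were low in iWAT. Gdf15 was at 2.3, 15.7, 3.2, 1.9 and 0.9 TPM and Fgf21 at 2.3, 9.5, 1.5, 1.4 and 0.8 TPM in LFABP-/- libraries, with replicate 2 the highest for both, as in iBAT of the same mouse. That iWAT library also held the most brown adipocyte marker RNA, 2813.8 TPM in sum. Of the 130 tested genes of the 7 lists of neighbouring pathways, 0 were called in iWAT by limma, while 12 reached an unadjusted p under 0.05, beside 10.4% of all genes.

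**Figure D4:**
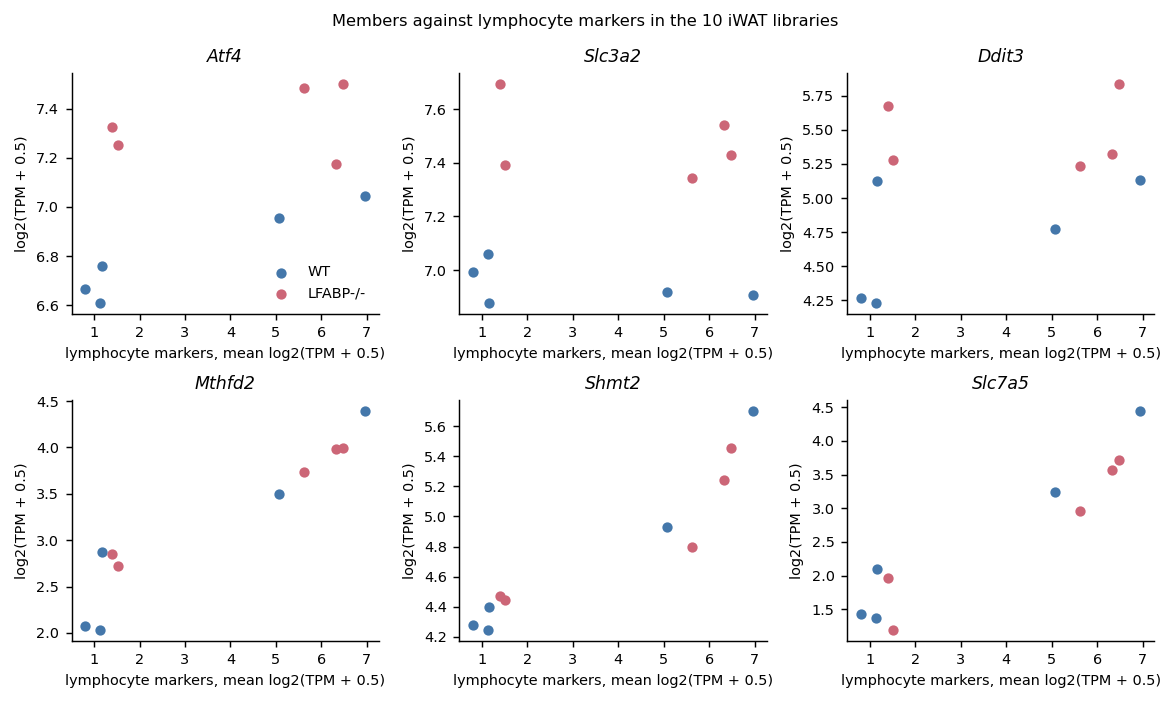
Levels on a log2 axis of TPM plus 0.5 of Atf4, Slc3a2, Ddit3, Mthfd2, Shmt2 and Slc7a5 against the mean log2 level of 15 lymphocyte markers in the 10 iWAT libraries, 1 point per mouse. Mthfd2, Shmt2 and Slc7a5 were higher in the 5 libraries with lymph node (marker level 5.06 to 6.95) whatever the genotype, while Atf4 was higher in LFABP-/- mice on both sides.

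In iWAT 6 of the 34 members were ordered by the lymphocyte markers, a smaller share than over all genes. Aldh18a1, Shmt2, Mthfd2, Slc7a5, Slc7a11 and Slc7a1 were higher in every library with lymph node than in every other, and 0 members showed the reverse, beside 24.5% and 1.49% of all tested genes. Mthfd2 was at 10.8 to 20.5 TPM with lymph node and at 3.6 to 6.8 TPM without. Slc7a5, the leucine carrier LAT1, was at 7.3 to 21.2 and 1.8 to 3.8 TPM, and Slc7a11, the cystine carrier xCT, at 1.2 to 2.8 and 0.0 to 0.1 TPM.

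Whether the genotype effect differed between tissues was tested for 32 members with limma over the 30 libraries jointly, treating the mouse as a random effect. Between iWAT and iBAT the effect differed for 10 members, beside 11.9% of all 13925 genes (6.48% more positive in iWAT and 5.39% in iBAT), and in all 10 it was larger in iBAT. They were Atf4, Trib3, Psat1, Cth, Mthfd2, Slc3a2, Gdf15, Fgf21, Hspa5 and Dnajb9. Atf4 and Slc3a2, called in both fat depots, thus also differed between them, by 1.03 and 1.27 on the log2 scale (adjusted p 0.00142 and 0.00966). Between iBAT and liver the effect differed for 13 members (16.7% of all genes, 11.5% more positive in iBAT and 5.21% in liver). In 11 it was more positive in iBAT, led by Fgf21 at 5.29, Gdf15 at 3.65 and Mthfd2 at 3.15, and for Hsp90b1 and Pdia4 it was more positive in liver, by 0.56 and 0.65. For Hspa5 the difference between iBAT and liver was -0.19 (SE 0.24, adjusted p 0.688). Between iWAT and liver, 4 members differed (3.60% of all genes), with Hspa5, Hsp90b1 and Pdia4 more positive in liver and Sesn2 more positive in iWAT. Over the tissues, 0 members rose in all 3 and 5 rose in 2, namely Atf4 and Slc3a2 in both fat depots and Cth, Hspa5 and Dnajb9 in iBAT and liver. A further 12 rose in 1 tissue and 17 in none. Members too low to test in a tissue, 5 in iBAT and 8 in liver, counted there as not raised. Of all tested genes 0.682% rose in iWAT, 22.3% in iBAT and 3.08% in liver. The tally by number of tissues was not computed over all genes, so the counts of members were not compared with it. The Cth call in iBAT was lost in limma with the liver share subtracted (adjusted p 0.188). The joint fit made no such subtraction.

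With both genotypes pooled, the members had different levels in the 3 tissues. Cth, Gpt2 and Shmt2 were highest in liver. With Herpud1 they made up the 4 members whose 10 liver libraries all lay above the 10 iWAT libraries, beside 9.45% of 13924 genes. Cth was at 154.1 to 299.8 TPM in liver, 3.3 to 13.9 in iWAT and 0.9 to 12.7 in iBAT, the fat depots overlapping. Phgdh showed the opposite order, at 231.9 to 527.3 TPM in iWAT, 7.8 to 20.2 in iBAT and 0.2 to 2.2 in liver, with no overlap between tissues. In all, 17 members were higher in every iWAT library than in every iBAT library and 0 the reverse, beside 69.4% and 3.18% of 13924 genes. This order depends on the large mitochondrial share of iBAT: with mitochondrially encoded genes left out of the total, it was 11 and 1 (33.5% and 9.09% of 14585 genes). Pycr1 is among the 17 members, and among the 16 given next, although its mean over the 30 libraries was under the 1 TPM required of the 13924 genes. Against liver, 16 members were higher in every iWAT library (64.1% of all genes), 6 in every iBAT library (21.2%), and 10 were higher in every liver library than in every iBAT library (26.2%). With mitochondrially encoded genes left out, 11 were higher in iBAT (49.9%) and 8 in liver (12.2%), so the order of these 2 counts turned. Gdf15, Fgf21, Trib3, Mthfd2, Chac1, Dnajb9, Slc7a5 and Slc7a11 overlapped between every pair of tissues with the genotypes pooled. In WT alone some of them did not. Fgf21 was at 0.1 to 0.7 TPM in iBAT and 5.4 to 36.1 in liver, and Gdf15 at 0 to 0.4 and 15.4 to 63.3. Mthfd2 was at 0.9 to 1.4 TPM in iBAT and 3.6 to 20.5 in iWAT of WT mice.

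**Figure D5:**
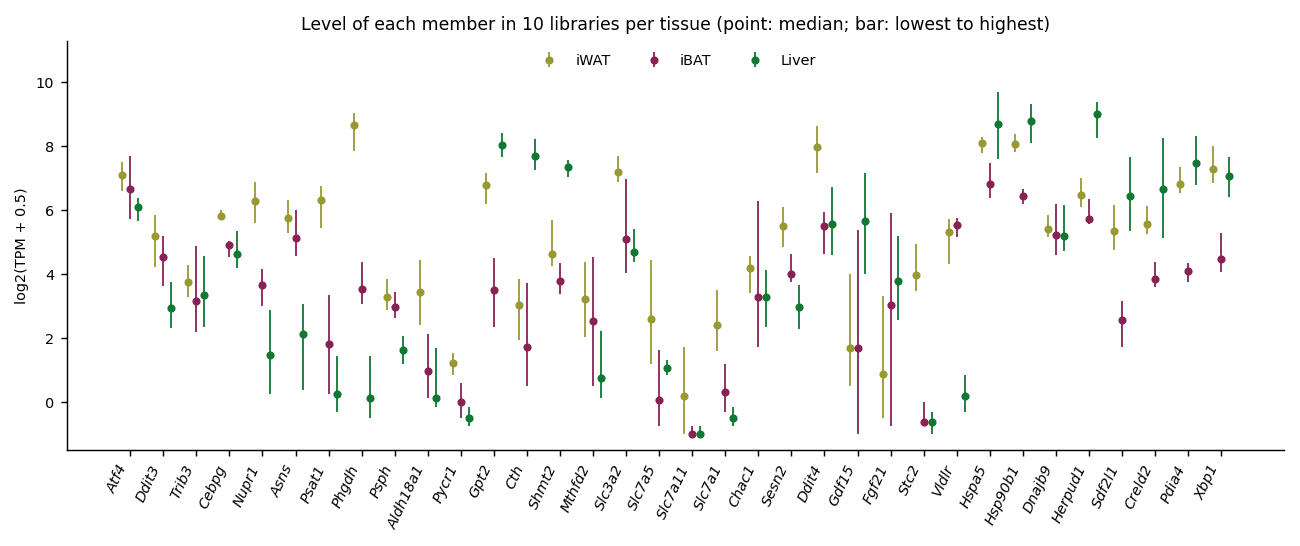
Level of each member in iWAT, iBAT and liver on a log2 axis of TPM plus 0.5, 10 libraries per tissue with both genotypes together; points are medians and bars run from the lowest to the highest library. Cth, Gpt2 and Shmt2 were highest in liver and Phgdh and Psat1 in iWAT, while Fgf21 and Gdf15 spread widely within iBAT.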

How the data were processed

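Poly(A) RNA from iWAT, iBAT and liver of 5 WT and 5 LFABP-/- mice was sequenced as single reads of 100 bases, and the authors mapped the reads in CLC Genomics Workbench 20.0.4 to GRCm38 with Ensembl 92 gene models. The deposited values are headed RPKM but sum to between 999967.3 and 999996.4 in each library, so they were treated as TPM, rounded to 1 decimal. Read depth is not given in the sources used here, so counting error was not computed, and the error of a value is the spread over mice.

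Genes with a mean of at least 1 TPM over the 10 libraries of a tissue were fitted on log2(TPM + 0.5) with limma 3.58.1 in R 4.3.3 (lmFit and a trended eBayes). Two-sided p-values were adjusted over all tested genes by the Benjamini-Hochberg method and called under 0.1. Differences between tissues were tested over the 30 libraries jointly, treating the mouse as a random effect (statmod 1.5.0). The procedure was tested on simulated data. For called members, an exact permutation test (two-sided) was added. All 34 members are named by role, with up to 3 called genes of smallest p per neighbouring list and tissue. The members and lists were chosen with earlier results of these data known. The liver share of an iBAT library was estimated from its hepatocyte markers against liver of the same genotype; covariate fits in iBAT and liver, this subtraction and the fit without libraries by their Fabp1 were chosen after seeing the data.

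The library kit does not mark strand. Slc7a5 overlaps a gene on the opposite strand by 26545 bases, Psph by 452, Ddit3 by 68 and Shmt2 by 32, and their reads cannot be told apart there. Ddit3 is listed under 2 identifiers, of which 1 is at 0 in every library. Alternatives covered the pseudocount, filter, scaling, library weights, replicate block, covariates and a term for the prefix of the library name. They also left out each library in turn, or each mouse in the fit between tissues. The labels do not give the meaning of the prefix. In iWAT it was G30 for all 5 WT libraries and LFABP-/- replicate 1, G3 for LFABP-/- replicate 2 and G32 for LFABP-/- replicates 3, 4 and 5. The term used the prefix that each mouse had in iBAT and liver.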

Additional observations from a re-analysis of the deposited data

Results flagged for a closer look

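Single libraries stood apart from the other 4 of their group in 16 of 178 member groups examined (8.99%). The rule was a gap in TPM to the next library of more than 0.71 of the group's range. The groups share libraries and the share over all genes was not computed, so this rate was not compared with chance. LFABP-/- replicate 2 accounted for 6 of these in iBAT, with Trib3 at 29.2 TPM (others 11 to 15.8), Asns at 64 (41.9 to 47.8), Psat1 at 9.7 (3.6 to 4.9), Cth at 12.7 (3.3 to 5.1), Mthfd2 at 22.8 (9.2 to 12.8) and Fgf21 at 59.4 (14.7 to 20.2). The same mouse stood apart in iWAT for Sesn2 at 67.8 TPM, Gdf15 at 15.7 and Fgf21 at 9.5. In liver, LFABP-/- replicate 1 stood apart for 3 ER genes, with Hspa5 at 837.0 TPM (others 420.2 to 532.0), Creld2 at 304.9 (83 to 124.7) and Pdia4 at 317.3 (156.3 to 199.2). The remaining cases were Ddit4 at 301.7 TPM in iWAT of WT replicate 4, Stc2 at 28.4 in iWAT of WT replicate 1, Creld2 at 12.4 in iBAT of WT replicate 2, where it was the lowest, and Mthfd2 at 4.2 in liver of WT replicate 5, the library with the highest macrophage marker level.

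The genotype effect differed between tissues by a test of the difference itself in 27 cases, given here as log2 differences of the effects. For iWAT minus iBAT these were -1.03 for Atf4, -1.17 for Trib3, -1.84 for Psat1, -1.95 for Cth, -2.56 for Mthfd2, -1.27 for Slc3a2, -4.63 for Gdf15, -3.56 for Fgf21, -0.68 for Hspa5 and -0.75 for Dnajb9. For iWAT minus liver they were 0.92 for Sesn2, -0.87 for Hspa5, -0.74 for Hsp90b1 and -0.85 for Pdia4. For iBAT minus liver they were 1.45 for Atf4, 0.96 for Ddit3, 1.96 for Trib3, 1.58 for Psat1, 1.26 for Aldh18a1, 3.15 for Mthfd2, 1.79 for Slc3a2, 1.18 for Slc7a1, 0.96 for Sesn2, 3.65 for Gdf15, 5.29 for Fgf21, -0.56 for Hsp90b1 and -0.65 for Pdia4. Adjusted p in limma ranged from 1.81e-05 (Fgf21, iBAT minus liver) to 0.0833 (Sesn2, iWAT minus liver). Tests of Trib3, Ddit3, Aldh18a1, Slc7a1, Sesn2, Hspa5, Hsp90b1, Dnajb9 and Pdia4 lost their call under some of the 16 alternatives. In the fits within a tissue, Psat1, Aldh18a1 and Slc7a1 were too low to test in liver, and Slc7a1 also in iBAT.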

How the results depend on the processing

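For single members, 2252 of 2374 recomputed values kept their side of the threshold (104 of these, all of them not called, changed sign), 64 lost and 57 gained the call, and 1 reversed: Sdf2l1 in iWAT under library weights, at 0.50 (adjusted p 0.0862), a setting that moved the median of all genes to 0.252. In iWAT (2 members called) the count was 1 with median-ratio scaling or an adjusted p under 0.05, 19 with library weights, 6 with lymphocyte and 5 with plasma cell markers as a covariate, and 0 with skeletal muscle or macrophage markers as a covariate or without the libraries with lymph node. It was 0 to 3 when each library was left out. With library weights the members called went in both directions, such as Mthfd2 at a log2 difference of 1.475 and Asns at -0.5273. Atf4 in iWAT lost its call in 13 of 29 alternatives and Slc3a2 in 6. In iBAT (18 called) the count was 7 at a mean of at least 20 TPM, where 12 members remained to test, 4 with hepatocyte markers as a covariate and 17 to 20 with each library left out. In liver (4 called) it was 2 at an adjusted p under 0.05 or with macrophage markers as a covariate, and 2 to 6 with each library left out, and Dnajb9 lost its call in 11 and Hsp90b1 in 6 of 24 alternatives. Differences between tissues ranged over 7 to 12 (iWAT and iBAT), 1 to 5 (iWAT and liver) and 10 to 16 (iBAT and liver) with all libraries of each mouse left out in turn, and the last was 8 at a mean of at least 20 TPM. The cause of these changes was not tested, apart from the smaller number of genes or libraries. Except for the hepatocyte covariate, counts under alternative settings are given here and above without the share of all genes called in the same fit. Such counts describe the setting and are not read as results about the members. Among neighbouring lists, median-ratio scaling gave 3 called aminoacyl-tRNA synthetases in liver and 5 mitochondrial chaperones and proteases in iBAT, and with no filter 8 other unfolded protein response genes and 0 mitochondrial chaperones were called in liver.

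Same-numbered WT and LFABP-/- mice are different animals. Their deviations correlated at -0.334 to 0.669 in iWAT, -0.53 to 0.511 in iBAT and -0.0614 to 0.127 in liver, so the numbers do not pair them, and in no tissue did every mouse correlate best with its own number. With the replicate block 1 member was called in iWAT, 18 in iBAT and 6 in liver. The unknown read depth limits what can be said of members near 0.1 TPM.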
